A study of Mus musculus with 2 samples.

Results

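The Fc gamma receptor genes of the mouse are described here across cell classes of sorted brain microglia: Fcgr1, Fcgr3 and Fcgr4, which encode activating receptors for immunoglobulin G, Fcgr2b, which encodes the inhibitory receptor, Fcer1g, which encodes the signalling chain shared by the activating receptors, and Fcgrt, which encodes the neonatal Fc receptor. The members were chosen by symbol, with earlier results of these data known, and all 6 were found among the 32589 features of both libraries, each on 1 row. Microglia are the resident macrophages of the brain. Cells positive for CD11b and low in CD45 were sorted from prefrontal cortex of C57BL/6 mice and profiled by single-cell RNA sequencing with a GEXSCOPE kit. One group of mice received vehicle and the other corticosterone, the main glucocorticoid of rodents, by oral gavage as a model of depression with raised glucocorticoid. There was 1 library per group. Strain, tissue, sort and kit were the same for both groups, and the labels give no allele, age, sex, dose, duration or number of animals per library.

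Activating Fc gamma receptors bind the constant part of immunoglobulin G and signal through an activation motif (ITAM) on the Fcer1g chain, which recruits the kinase Syk and starts phagocytosis and cytokine release. Fcgr2b binds the same ligands but carries an inhibitory motif (ITIM) that recruits the lipid phosphatase SHIP, the product of Inpp5d, so that the level of activating relative to inhibitory receptor sets a threshold for immune complexes. Fcgrt works inside endosomes together with beta-2 microglobulin, where it returns immunoglobulin G and albumin to the cell surface. Microglia are known to carry these receptors, and in macrophages interferon gamma is known to raise Fcgr1.

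Fcgr2b, Fcgr4, Fcgr3 and Fcer1g lie on chromosome 1 of GRCm38, at 170958617 to 170976547 (minus strand), 171018920 to 171029761 (plus strand), 171051174 to 171064935 (minus strand) and 171229572 to 171234365 (minus strand) in GENCODE M21. Fcgr1 lies on chromosome 3 at 96282909 to 96293969 and Fcgrt on chromosome 7 at 45092990 to 45103851, both on the minus strand. The 200 bases upstream of the RefSeq start (GRCm38.p6) are shown for the 3 activating receptors, because their transcripts differed between cell states in the results that follow. The window of Fcgr3 lies inside the gene as annotated, before the start of its shorter coding transcripts and in an intron of a longer one, and the promoter table holds another, largely overlapping Fcgr3 window that is not shown. Each is written on the gene's own strand, 5′ to 3′. Capitals mark TTC and GAA with any 3 bases between them (the letters of a gamma-activated site) in Fcgr1, GAAA and GAAA with any 2 bases between them (part of an interferon-stimulated response element) in Fcgr4, and TTCCTC, the opposite-strand reading of GAGGAA (core of the PU.1 site), in all 3.
Fcgr1, chr3:96293970-96294169: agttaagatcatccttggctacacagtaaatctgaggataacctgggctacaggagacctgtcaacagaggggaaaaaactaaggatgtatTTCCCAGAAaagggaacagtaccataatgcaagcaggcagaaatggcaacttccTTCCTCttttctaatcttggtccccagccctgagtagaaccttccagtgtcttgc
Fcgr3, chr1:171059404-171059603: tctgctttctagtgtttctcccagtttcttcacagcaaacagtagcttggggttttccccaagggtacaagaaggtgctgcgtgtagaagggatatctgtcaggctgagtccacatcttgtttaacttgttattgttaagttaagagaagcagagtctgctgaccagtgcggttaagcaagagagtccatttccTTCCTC
Fcgr4, chr1:171018726-171018925: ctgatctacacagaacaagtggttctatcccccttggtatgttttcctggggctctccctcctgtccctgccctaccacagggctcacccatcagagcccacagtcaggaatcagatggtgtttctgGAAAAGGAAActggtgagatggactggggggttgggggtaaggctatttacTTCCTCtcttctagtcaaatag

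The gamma-activated site letters of Fcgr1 span bases 109 to 101 before the start, and the response element letters of Fcgr4 span bases 73 to 64. Read on both strands, the former were found in 5.49% and the latter in 2.27% of 32851 promoter windows of the same length, and neither was found in the window of Fcgr3, Fcgr2b, Fcer1g or Fcgrt. GAGGAA was found in 19.0% of windows. It lies at bases 55 to 50 before the start in Fcgr1, 6 to 1 in Fcgr3 and 22 to 17 in Fcgr4, and it was not found in the windows of the other 3 members. The longest run shared by Fcgr1 and Fcgr3 was TTCCTTCCTC, 10 bases that include this match and that occur in the windows of 78 of 27019 other genes. AGAACA, the letters of a glucocorticoid receptor half-site, was found in the windows of Fcgr4 and Fcgr2b, bases 189 to 184 and 191 to 186 before the start, and in 12.9% of all windows. The window of Fcgr2b lies inside the gene as annotated and overlaps exons of its 5′ UTR, so it is not shown, and its matches may lie in transcribed sequence. The letters of an NF-kB site, GGG and TTTCC with any 2 bases between them, were found in Fcgr3 at bases 152 to 143 and in 1.18% of all windows. TATAAA was found in 9.96% of all windows and in none of the 6. These matches describe letters only and were not measured as binding sites.

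After filtering, the vehicle library held 10500 cells (49325067 UMIs in all, each UMI standing for 1 captured transcript), and 17883 cells remained after corticosterone (85103539 UMIs). Median depth was 3220.5 and 3961 UMIs per cell. Clusters were formed without the 6 members and were named by marker genes. The microglia-like class drew on different clusters in the libraries. Cluster 1 held 7554 of its 7987 vehicle cells and 164 of its 15289 corticosterone cells. Cluster 0, led by immediate early and cytokine genes such as Egr3, Egr2, Tnf and Ccl2, held 124 and 8831, and cluster 2 held 244 and 5422. All 9 microglia markers were detected in the class, with P2ry12 at 6117 and 3520 counts per 1e6 UMIs (CPM). Every other class also carried microglia transcripts: the median level of 4 microglia markers relative to microglia-like cells lay between 0.142 and 0.860 over the classes compared. Group, library and any batch of preparation cannot be told apart, no test between groups was possible, and 95% intervals cover counting error only.

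In microglia-like cells, the activating receptor Fcgr4 stood apart from the other members. Its level was 18.2 CPM in vehicle (590 UMIs, interval 16.8 to 19.7) and 108 CPM in corticosterone (7724 UMIs, interval 105 to 110). This is a 5.91-fold higher level, a log2 ratio of 2.56 (interval 2.44 to 2.69). Of 6605 genes with a mean of at least 20 CPM, 99.8% had a log2 ratio at or below that of Fcgr4. Of the 6 members, 1 was higher by 2-fold or more and 0 were lower by 2-fold or more, where 1.79% and 1.27% of these genes were. The median log2 ratio was 0.26 over the 6 members and 0.00 over all genes.

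The other activating receptors were higher by less. Fcgr3, the low-affinity receptor, was at 1613 CPM in the vehicle and 2194 CPM in the corticosterone library, a log2 ratio of 0.44 (interval 0.43 to 0.46). Fcgr1, the high-affinity receptor, was at 479.5 and 614 CPM, a log2 ratio of 0.36 (0.33 to 0.38). The Fcer1g chain, without which the activating receptors do not signal, was at 2098 and 2302 CPM with a log2 ratio of 0.13 (0.12 to 0.15). Its ratio was smaller than that of each of the 3 receptors that use it, and the intervals did not overlap.

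The inhibitory Fcgr2b was at 443 and 494 CPM, a log2 ratio of 0.16 (interval 0.13 to 0.18). Fcgrt was the member with a lower level after corticosterone, at 89.7 and 78.0 CPM, and its log2 ratio was -0.20 (interval -0.27 to -0.14). It was -0.10 with cells thinned to 1000 UMIs and -0.37 over all kept cells. The summed level of 10 macrophage markers in microglia-like cells was also lower, at 87.9 and 41.8 CPM, and without the cells that held a UMI of one the log2 ratio of Fcgrt was -0.14. Among all genes, 87.3% had a log2 ratio at or below that of Fcgr1, 91.2% for Fcgr3, 70.4% for Fcgr2b, 67.4% for Fcer1g and 23.7% for Fcgrt. Scaling by the size factors of DESeq2 moved the median of all genes by 0.11, which is close to the log2 ratio of Fcer1g itself.

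**Figure D1:**
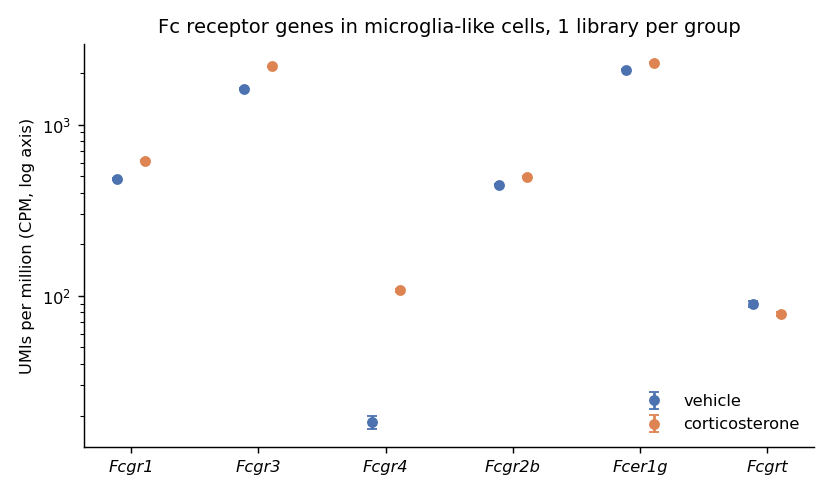
Level of each Fc receptor gene in microglia-like cells, in counts per 1e6 UMIs (CPM) on a log axis, for the vehicle and the corticosterone library. Points are sums over the cells of 1 library and bars are exact Poisson 95% intervals for counting error. Fcgr4 goes from 18.2 to 108 CPM, while the other 5 genes differ by less than 2-fold. Of these, Fcgr3 is at 1613 and 2194 CPM and Fcgr1 at 479.5 and 614 CPM.

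The balance of activating and inhibitory receptors was measured as the UMIs of Fcgr1, Fcgr3 and Fcgr4 together per UMI of Fcgr2b, a quantity that library scaling leaves unchanged. It compares transcripts and not receptor proteins. In microglia-like cells there were 4.76 activating UMIs per inhibitory UMI in vehicle (interval 4.68 to 4.85) and 5.90 in corticosterone (5.84 to 5.97), a log2 difference of 0.31 (0.28 to 0.34). With cells chosen one by one, by at least 3 microglia markers and no UMI of a macrophage, monocyte or neutrophil marker, the balance was 5.02 and 5.60, a log2 difference of 0.16. Taken alone, Fcgr3 per Fcgr2b went from 3.64 to 4.44, Fcgr1 per Fcgr2b from 1.08 to 1.24 and Fcgr4 per Fcgr2b from 0.0411 to 0.218. All 3 activating receptors were thus higher relative to Fcgr2b in the corticosterone library. The signalling chain did not follow: Fcer1g per Fcgr2b was 4.74 in vehicle and 4.66 in corticosterone, and the interval of the log2 difference, -0.05 to 0.01, included 0.

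Of the UMIs of the 4 receptors, Fcgr2b took 17.3% in vehicle and 14.5% in corticosterone microglia-like cells, and Fcgr4 took 0.713% and 3.16%. Fcgr3 took 63.2% and 64.4% and Fcgr1 18.8% and 18.00%. The share taken by Fcgr2b was thus lower, while that of Fcgr1 differed by less than 1 percentage point even though its level was higher.

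The balance differed between classes. In border-associated macrophage-like cells, which are macrophages of the meninges and perivascular spaces named here by Mrc1, Pf4, Lyve1 and Cd163 among other markers, it was 3.25 in vehicle (interval 3.17 to 3.34) and 3.10 in corticosterone (3.01 to 3.19), the lowest value of any class in both libraries. Their log2 difference was -0.07 (-0.13 to -0.01), against 0.31 in microglia-like cells. In neutrophil-like cluster 7, led by Cxcr2 and Clec4d, the balance was 4.56 and 5.82, and in neutrophil-like cluster 8, led by the granule genes Camp, Ngp and Ltf, it was 4.36 and 5.03 with an interval of the log2 difference from -0.10 to 0.51. Unnamed cluster 10, led by MHC class II genes such as H2-Eb1 and Cd74, had 3.95 and 3.66, and its interval, -0.31 to 0.09, included 0 as well. Unnamed cluster 3, barcodes with a median of 1114.5 and 1262 UMIs, had 4.73 and 5.53.

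**Figure D2:**
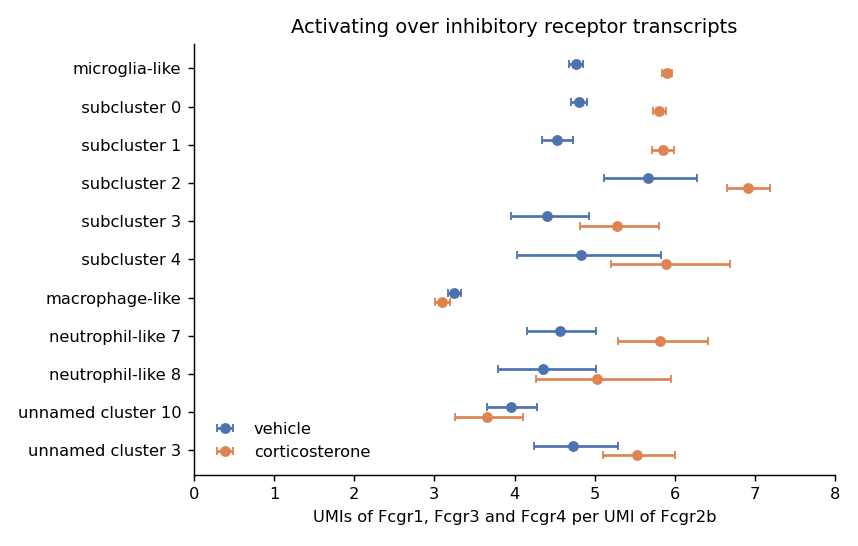
UMIs of Fcgr1, Fcgr3 and Fcgr4 per UMI of Fcgr2b in each class and microglia subcluster, with 1 point per library and bars for exact 95% counting intervals. The corticosterone point lies to the right in microglia-like cells (4.76 and 5.90) and in each of their subclusters. It lies to the left in macrophage-like cells (3.25 and 3.10) and unnamed cluster 10. Of these, subcluster 4 (-0.03 to 0.60) and cluster 10 (-0.31 to 0.09) had an interval of the log2 difference that included 0.

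Fcgr4 was higher in the corticosterone library in every class compared. The other classes also carried microglia transcripts, and the part of these in their Fcgr4 levels was not tested. In corticosterone the median level of 4 microglia markers, relative to microglia-like cells, ran from 0.142 in neutrophil-like cluster 8 to 0.860 in erythroid barcodes. It was 0.645 in macrophage-like cells, 0.640 in cluster 10, 0.729 in cluster 3 and 0.539 in neutrophil-like cluster 7. Neutrophil-like cluster 7 had the highest level in both libraries, 62.5 CPM in vehicle (interval 49.3 to 78.1) and 245 CPM in corticosterone (218 to 273). Neutrophil-like cluster 8 followed in vehicle with 57.7 CPM (44.0 to 74.3), which overlapped cluster 7, and reached 96.7 CPM in corticosterone (79.1 to 117), which overlapped microglia-like cells at 108 CPM. Macrophage-like cells had 198 UMIs in vehicle, with an interval of 15.6 to 20.7 CPM that overlapped that of microglia-like cells, and 75.5 CPM in corticosterone. Cluster 10 had 33.9 and 75.9 CPM and cluster 3 had 9.28 and 43.9 CPM. In erythroid cell-like barcodes, a class that should lack the receptors, Fcgr4 had 1 UMI in vehicle, or 2.08 CPM, and 34 UMIs in corticosterone, or 82.3 CPM, a ratio whose counting interval ran from 6.65 to 1611.

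The 2-fold mark for Fcgr4 was passed in macrophage-like cells (log2 ratio 2.07, interval 1.83 to 2.31), in neutrophil-like cluster 7 (1.97, 1.61 to 2.35), in cluster 10 (1.16, 0.55 to 1.77) and in cluster 3 (2.24, 1.38 to 3.24). It was not passed in neutrophil-like cluster 8 (0.75, 0.27 to 1.23). Erythroid barcodes passed it on 1 vehicle UMI (5.31, 2.73 to 10.7), and 7.39% of all genes did there. The share of all genes higher by 2-fold or more was 2.25% in macrophage-like cells, 3.87% in neutrophil-like cluster 7, 3.74% in cluster 10, 2.88% in cluster 3 and 1.71% in neutrophil-like cluster 8. Fcgr4 was the sole member past 2-fold higher in each class where it passed.

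Fcgr1 and Fcgr3 followed another order. Fcgr1 was highest in microglia-like cells in both libraries, although in vehicle its interval (472 to 487) overlapped those of macrophage-like cells at 469 CPM (456 to 482) and cluster 10 at 468 CPM (433 to 505). In corticosterone it was at 614 CPM in microglia-like cells, 553 CPM in macrophage-like cells, 460.5 CPM in cluster 10 and 358 CPM in neutrophil-like cluster 7. Fcgr3 in vehicle was at 1672 CPM in macrophage-like cells, 1659.5 CPM in cluster 10 and 1613 CPM in microglia-like cells, and the interval of cluster 10 (1593 to 1728) included both others. In corticosterone it was at 2194 CPM in microglia-like cells and at 2133 CPM in erythroid barcodes (1995 to 2279), which overlapped. For both genes the lowest level was in neutrophil-like cluster 8, where Fcgr1 was at 181 and 77.4 CPM and Fcgr3 at 817 and 641 CPM.

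In neutrophil-like cluster 8 several members were lower after corticosterone. The log2 ratio was -1.22 for Fcgr1 (interval -1.61 to -0.85), -0.35 for Fcgr3 (-0.50 to -0.20), -0.58 for Fcgr2b (-0.87 to -0.30) and -1.40 for Fcgrt (-2.30 to -0.56). So 2 of the 6 were lower by 2-fold or more, in a cluster where 12.1% of 5263 genes were. The level of the 4 microglia markers moved with these genes: relative to microglia-like cells it was 0.357 in vehicle and 0.142 in corticosterone, and Fcgr1 relative to microglia-like cells was 0.377 (0.325 to 0.435) and 0.126 (0.101 to 0.156). The median cell of this cluster had 2689 UMIs in vehicle and 7459.5 in corticosterone. The part of microglia transcripts in the result was not tested. Fcer1g, in contrast, was at the level of microglia-like cells in this cluster in both libraries, 2098 CPM in both classes in vehicle (ratio interval 0.958 to 1.04) and 2226 against 2302 CPM in corticosterone (ratio interval 0.929 to 1.01), and Fcgr4 was at 3.17 times (2.39 to 4.14) in vehicle and 0.899 times (0.734 to 1.09) in corticosterone.

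Fcgr2b and Fcgrt were highest in macrophage-like cells. The inhibitory receptor was at 664 and 852 CPM there, followed by cluster 10 at 547 and 612 CPM and microglia-like cells at 443 and 494 CPM. Fcgrt was at 227 CPM (interval 218 to 236) and 294 CPM (281 to 307), which is 2.53 times (2.40 to 2.67) and 3.77 times (3.58 to 3.97) its level in microglia-like cells. Its direction between libraries differed as well, with a log2 ratio of 0.37 (0.29 to 0.46) in macrophage-like cells and -0.20 in microglia-like cells. This class drew on different clusters in the libraries: 991 of 1060 vehicle cells were in cluster 4 and 756 of 805 corticosterone cells in cluster 6. All 10 macrophage markers had UMIs in both, with a summed level of 3638 and 7378 CPM, and the microglia markers were at 0.821 and 0.645 of their level in microglia-like cells. The part of these differences in the Fcgrt and Fcgr2b results was not tested.

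Fcer1g varied least between classes. Its level lay between 1482 CPM in cluster 3 and 2355 CPM in macrophage-like cells in vehicle, and between 1324 and 2778 CPM in the same classes in corticosterone. Macrophage-like cells (interval 2327 to 2384) and cluster 10 at 2291 CPM (2213 to 2371) overlapped in vehicle, as did cluster 10 and neutrophil-like cluster 7 at 2227 CPM (2145 to 2312). The standard deviation of log2(CPM + 1) over 14 sums of class and library was 0.30 for Fcer1g, 0.52 for Fcgr3, 0.62 for Fcgr2b, 0.77 for Fcgr1, 1.02 for Fcgrt and 1.62 for Fcgr4.

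**Figure D3:**
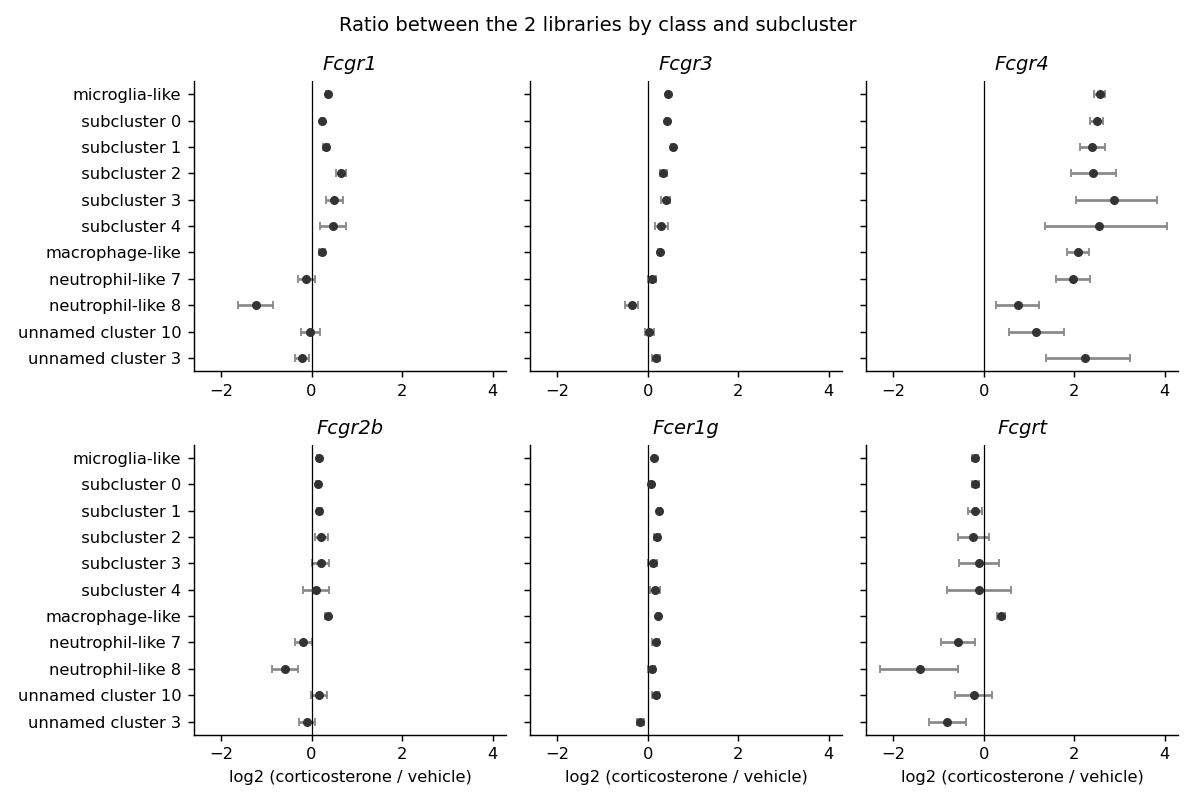
Log2 ratio of corticosterone over vehicle for each member in each class and microglia subcluster, with exact 95% intervals for counting error and a line at no difference. Fcgr4 lies to the right of the line in every row, from 0.75 in neutrophil-like cluster 8 upward, and Fcgr1 in neutrophil-like cluster 8 lies at -1.22.

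Clustering of the microglia-like cells alone, on values centred within each library, gave subclusters 0 to 5, of which the last, with 15 and 2 cells, was left out. Subcluster 2 was led by interferon-induced genes (Ifit3, Ifit1, Rsad2) and held 240 vehicle and 1219 corticosterone cells, 2.29% and 6.82% of the libraries. The summed level of 8 interferon markers was 1296 and 3268 CPM there, against 65.3 to 79.5 CPM in the other subclusters in vehicle and 261 to 409 CPM in corticosterone. Fcgr1 was highest in this subcluster in both libraries, at 706 CPM (interval 656 to 759) and 1107 CPM (1081 to 1133). Relative to the other microglia-like cells of the same library it was 1.497 times (1.39 to 1.61) and 1.95 times (1.90 to 2.00) as high.

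Fcgr4 was also highest in subcluster 2, at 34.9 CPM in vehicle (37 UMIs, interval 24.6 to 48.1) and 184 CPM in corticosterone (174 to 195), or 1.98 times (1.38 to 2.76) and 1.84 times (1.73 to 1.96) the other microglia-like cells. Fcgr3 did not share this pattern: it was 0.998 times (0.9502 to 1.047) and 0.928 times (0.911 to 0.945) the level of the other microglia-like cells, and Fcgr2b was 0.935 times (0.849 to 1.03) and 0.976 times (0.9398 to 1.01). The balance was therefore highest in subcluster 2, at 5.66 and 6.92 activating UMIs per inhibitory UMI. The promoter windows of Fcgr1 and Fcgr4 hold the interferon-related letters shown above, and no relation between those letters and these levels was measured.

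The higher level of Fcgr4 in the corticosterone library was present in each of subclusters 0 to 4. The log2 ratio of Fcgr4 was 2.50 in subcluster 0, 2.39 in subcluster 1, 2.40 in subcluster 2, 2.87 in subcluster 3 and 2.55 in subcluster 4. Subcluster 3, led by neutrophil granule genes, rests on 13 vehicle UMIs of Fcgr4 and subcluster 4, led by Lpl and Lgals3, on 6, and their intervals ran from 2.04 to 3.83 and from 1.35 to 4.04. Fcgr4 was the sole member past 2-fold higher in each, where the share of genes higher by 2-fold or more was 1.57%, 1.53%, 2.79%, 2.78% and 3.82% from subcluster 0 to 4. Without subcluster 2, Fcgr1 had a log2 ratio of 0.26 in microglia-like cells in place of 0.36. The lowest levels of Fcgr1 and Fcgr3 were in subcluster 4, at 307 and 425 CPM and at 1172 and 1444 CPM, and its Fcer1g was at 2193 and 2451 CPM.

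**Figure D4:**
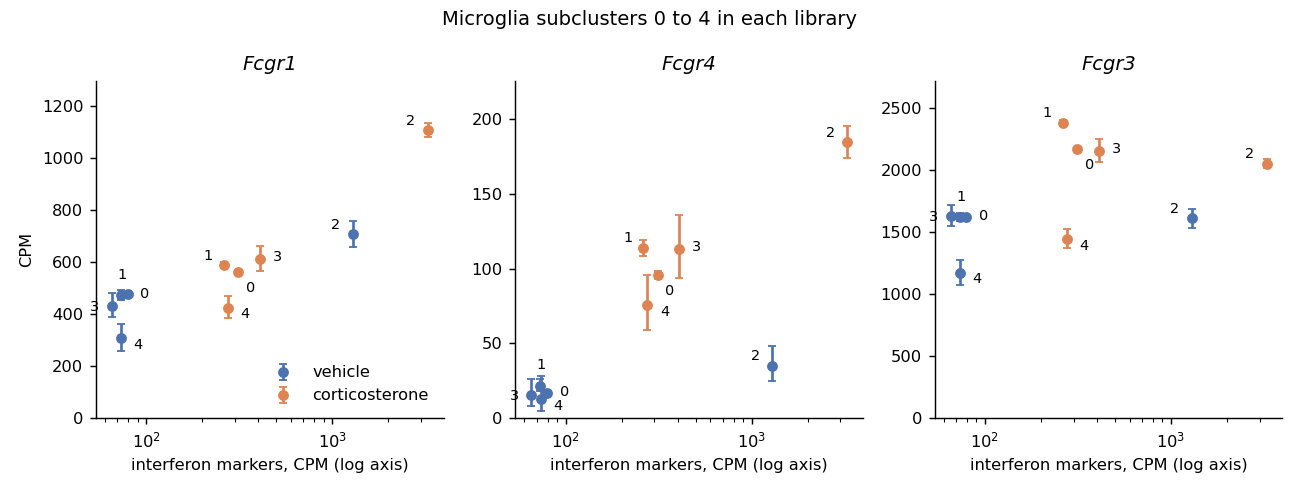
Level of Fcgr1, Fcgr4 and Fcgr3 (CPM) in microglia subclusters 0 to 4 of each library against the summed CPM of 8 interferon markers on a log axis, with the subcluster number beside each point and exact Poisson 95% intervals as bars. Subcluster 2 is the highest point of its library for Fcgr1 (706 and 1107 CPM) and Fcgr4 (34.9 and 184 CPM) but not for Fcgr3.

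Because depth differed between libraries, detection was compared at a fixed depth of 1000 UMIs drawn from every cell, which left out 629 vehicle and 99 corticosterone microglia-like cells. Fcgr4 had a UMI in 134 of 7358 vehicle cells, 1.82% (Clopper-Pearson interval 1.53 to 2.15), and in 1479 of 15190 corticosterone cells, 9.74% (9.27 to 10.22). Without thinning these shares were 5.98% and 31.8%. Fcgr1 had a UMI in 36.8% and 44.5% of thinned cells, Fcgr3 in 76.8% and 86.1%, Fcgr2b in 34.5% and 36.8%, Fcer1g in 84.6% and 86.7%, and Fcgrt in 7.95% and 7.46%.

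The same shares were taken in erythroid cell-like barcodes, 133 vehicle and 84 corticosterone barcodes at 1000 UMIs, with median depths of 2467.5 and 3753.5 UMIs before thinning against 3177 and 4003 in microglia-like cells. Fcgr4 had a UMI in 0 of 133 vehicle barcodes, with a Clopper-Pearson upper bound of 2.74%, and in 8.33% of corticosterone barcodes (interval 3.42 to 16.4). Fcgr1 had 26.3% and 46.4%, Fcgr3 68.4% and 84.5%, Fcgr2b 31.6% and 45.2%, Fcer1g 77.4% and 78.6%, and Fcgrt 10.5% and 13.1%. In corticosterone, the shares of Fcgr1, Fcgr2b and Fcgrt in microglia-like cells were not above those in erythroid barcodes. In vehicle that of Fcgrt was not above it either. These shares were thus not set apart from background by this comparison. In corticosterone the intervals in erythroid barcodes included the share in microglia-like cells for all 6 members. Erythroid barcodes carried microglia markers at 0.791 and 0.860 of their level in microglia-like cells and a balance of 4.54 and 5.80. So no class was free of microglia transcripts. The erythroid shares are therefore not a clean background, and the comparison cannot decide between background and detection.

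Single cells were also grouped by which receptor had a UMI at 1000 UMIs. In microglia-like cells, 55.7% of vehicle and 58.5% of corticosterone cells had an activating receptor without Fcgr2b, 29.3% and 34.3% had both, 5.21% and 2.48% had Fcgr2b alone, and 9.77% and 4.71% had neither. In erythroid barcodes, an activating receptor without Fcgr2b was found in 50.4% and 48.8%, both in 26.3% and 42.9%, Fcgr2b alone in 5.26% and 2.38% and neither in 18.05% and 5.95%. The share with both in corticosterone microglia-like cells was below that in erythroid barcodes, so it was not set apart from background either. All 3 activating receptors together were found in 0.516% of vehicle cells (interval 0.366 to 0.708) and 4.04% of corticosterone cells (3.73 to 4.37). In erythroid barcodes they were found in 0 of 133 and in 2.38% (0.290 to 8.34), an interval that includes the share in corticosterone microglia-like cells. Without thinning, cells with both kinds were 65.5% and 78.5%, cells with Fcgr2b alone were 1.48% and 0.137%, and cells with all 3 activating receptors were 4.92% and 28.3%.

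**Figure D5:**
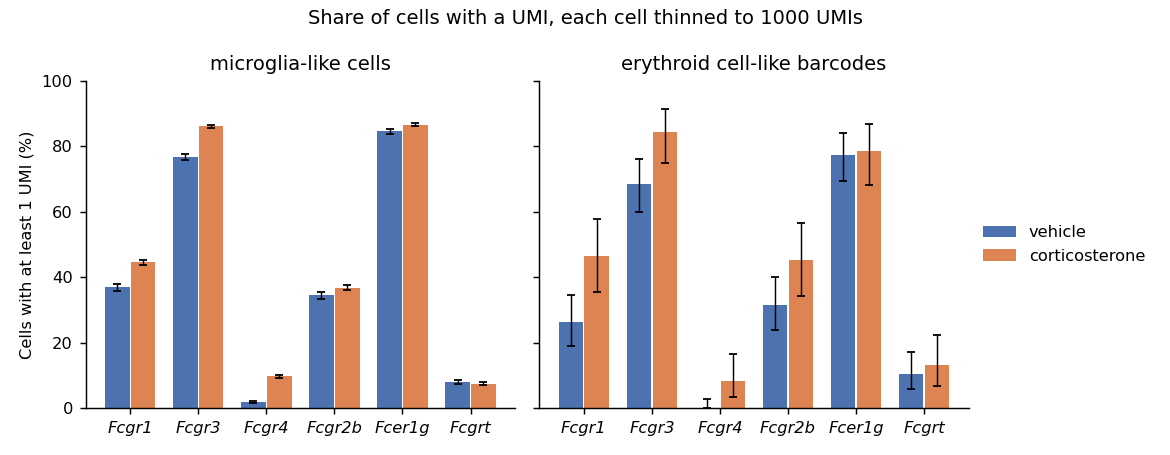
Percent of microglia-like cells and of erythroid cell-like barcodes with at least 1 UMI of each member after thinning to 1000 UMIs, as bars from 0 for each library with Clopper-Pearson 95% intervals. Fcgr4 goes from 1.82% to 9.74% in microglia-like cells, and erythroid barcodes show shares of a similar size for most members.

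Genes that act downstream of the receptors differed little between libraries in microglia-like cells. Of 36 measured genes of the ITAM signalling list, from the Src-family kinases and Syk to actin regulators, 17 were higher and 19 lower, with a median log2 ratio of -0.03, and 0 were higher and 2 lower by 2-fold or more against 1.79% and 1.27% of all genes. The highest was Lat2, an adaptor, at 88.9 and 158 CPM (log2 ratio 0.83, interval 0.77 to 0.89). The lowest were Plcg1, a phospholipase, at 36.3 and 17.3 CPM (-1.07, -1.19 to -0.96), and Prkce, a protein kinase C, at 34.0 and 16.4 CPM (-1.05, -1.17 to -0.93). Among 8 measured brakes on this signal, 4 were higher and 4 lower with a median of 0.02. Ptpn6 (log2 ratio 0.29), the phosphatase SHP-1, and Ptpn11 (0.12) were the highest, and Dok3 (-0.29) and Pag1 (-0.26), both adaptors, were the lowest. Inpp5d, the partner of Fcgr2b, was at 617 and 541 CPM, a log2 ratio of -0.19 (-0.21 to -0.17).

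The list of other ITAM-linked receptors and adaptors held 5 genes at this level, 3 higher and 2 lower, with a median of 0.08. Hcst, an adaptor that has no ITAM of its own, and Clec5a were the highest, each at 0.35, and Siglech (-0.10) and Trem2 (-0.57) the lowest. Tyrobp, an ITAM adaptor and 1 of the 5, was at 2343 and 2471 CPM, a log2 ratio of 0.08 against 0.13 for Fcer1g. Of 11 measured genes listed as ITIM receptors, 6 were higher and 5 lower, with a median of 0.13. Pilra (0.96) and Siglecf (0.63) were the highest and Sirpa (-0.41) and Lair1 (-0.28) the lowest, and none was past 2-fold in either direction. At a mean of at least 5 CPM, 16 were measured, of which 1 was higher and 2 were lower by 2-fold or more. These are named after their values were seen: Cd300lf at 1.85 and 20.3 CPM (3.46, interval 3.08 to 3.85), Pecam1 at 35.7 and 3.82 CPM (-3.23, -3.42 to -3.04) and Cd22 at 11.3 and 3.40 CPM (-1.73, -1.97 to -1.49).

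In the list of other Fc-binding, Fc receptor-like or partner genes, 3 were measured at this level. Fcrls, an Fc receptor-like gene of microglia, was at 2853 and 615 CPM, a log2 ratio of -2.21 (interval -2.23 to -2.20). Fcrl1, another Fc receptor-like gene, was at 68.3 and 27.1 CPM (-1.34, -1.42 to -1.25). B2m, which encodes the partner chain of Fcgrt, was at 4013 and 4829 CPM (0.27, 0.26 to 0.28), the opposite direction to Fcgrt. Of 12 immunoglobulin genes, Ighm alone was measured, at 413 and 387 CPM. All 7 measured interferon markers were higher by 2-fold or more, with a median of 2.53. They ran from Rtp4 (1.93) and Isg15 (1.98) to Usp18 (2.62) and Irf7 (2.80). Fcgr4 at 2.56 lay within that range, and it was at 2.51 without the interferon-high subcluster 2. A relation between Fcgr4 and these markers was not tested.

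Over the 14 sums of class and library, the genes whose log2(CPM + 1) was most like that of a member by Pearson correlation were Lgmn (0.993), C1qa (0.993) and Cd300c2 (0.990) for Fcgr1, and Ier2 (0.981), Grn (0.974) and Zfp36l2 (0.969) for Fcgr3. For Fcgr4 they were Ube2d3 (0.9402), Adipor2 (0.932) and the interferon marker Usp18 (0.927). For Fcgr2b they were Akr1a1 (0.984), Ms4a6b (0.984) and Ctsb (0.978), for Fcer1g Cox4i1 (0.978), Sap18 (0.964) and Ost4 (0.950), and for Fcgrt Fam174a (0.969), Fcgr2b (0.953) and Clta (0.951). These points share 2 libraries and their microglia transcripts, so the values are descriptions. By Spearman correlation 6 of these 18 genes were named again.

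Fcgr3 and Fcgr2b are near-identical over part of their length. Of the 50-base stretches of the longest coding transcript, 12.8% in Fcgr3 and 11.4% in Fcgr2b occurred in a transcript of another gene. None lay in the last 500 bases. The 166 shared stretches of Fcgr3 were all in Fcgr2b. The 397 of Fcgr2b were shared with Fcgr3 or with many other genes such as Cdk6 and Pax6, and the part shared with Fcgr3 was not counted. Reads from the part common to Fcgr3 and Fcgr2b could be counted for either gene, and how such reads were counted is not given in the sources used here. Fcgr1, Fcgr4, Fcer1g and Fcgrt had 0 such stretches. Antisense genes overlap Fcgr2b (Gm38204, 4 UMIs in both libraries) and Fcgrt (Gm45669, 51 UMIs), and whether counting used the strand is not stated.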

How the data were processed

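Single-cell RNA sequencing of sorted mouse microglia was analysed from 2 libraries, 1 per group. The deposited matrices give UMI counts by gene and barcode as whole numbers, not normalised. Per the submitters' processing notes, bcl2fastq 2.19 and the build GRCm38 were used; the aligner, counter, annotation and cell calling are not given in the sources used here. The files carry other group words than the labels, and each file was placed by the sample record that lists it.

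Barcodes under 500 UMIs or 300 genes, or with over 20% mitochondrial UMIs, were dropped, which removed 55 vehicle and 230 corticosterone barcodes, and 104 barcode sequences occurred in both libraries. Scrublet called 0 and 0 doublets, was taken not to have worked, and no doublets were removed. Leiden clustering (scanpy 1.11.5, leidenalg 0.10.2, resolution 0.5, 2000 variable genes without the 6 members, 30 components, 15 neighbours) ran over both libraries. A cluster was called X-like with at least 3 markers of a class. Each marker had to be in 10% or more of the cluster's cells and 2-fold above the other cells of the same library. Otherwise it was called microglia-like where microglia markers reached 0.5 times their overall geometric mean. A cluster was left unnamed where another class had more markers among its 10 leading genes. It was also left unnamed where its median depth was under 33.3% of the library median and those genes held no marker of its class. Cluster 3 was at 32.6%. These thresholds were set after the data had been seen. Monocyte-like (19 and 61) and endothelial cell-like (38 and 23) cells were too few to compare, with a minimum of 50 per library. The members and gene lists were chosen with earlier results of these data known.

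UMIs were summed per class and library and scaled to CPM. With 1 library per group, called means 2-fold at a mean of at least 20 CPM. Intervals are at the 95% level and cover counting error only. They are exact (Poisson, conditional binomial, Clopper-Pearson), except those of the log2 difference of the balance, which use a normal approximation. On simulated counts for 6628 genes, 200 of them changed, 95.1% of the intervals of the log2 ratio held the true value. These counts were drawn with the same counting error that the intervals assume. The simulation therefore checks the computation only and does not cover variation between cells or libraries. The named genes were the members, the 2 highest and 2 lowest of each list at that level, and the 3 most like each member. The genes at that level in the list of other Fc-binding, Fc receptor-like or partner genes were named too. Inpp5d, Tyrobp and P2ry12 were named beside them for their roles. Some genes that this rule names are not reported here. Clec7a, Pira6 and Pira11 were not found by symbol. Promoters come from RefSeq (GRCm38.p6), where all 6 members matched, and gene positions from GENCODE M21. Alternatives changed scaling (edgeR 4.0.16, DESeq2 1.42.0), cell filter, class, clustering, thinning and averaging.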

Additional observations from a re-analysis of the deposited data

Results flagged for a closer look

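Neutrophil-like cluster 8 and microglia-like cells moved in opposite directions for 3 receptor genes. The log2 ratio of corticosterone over vehicle was 0.36 in microglia-like cells and -1.22 in cluster 8 for Fcgr1, 0.44 and -0.35 for Fcgr3, and 0.16 and -0.58 for Fcgr2b. In that cluster microglia markers stood at 0.357 of their level in microglia-like cells in vehicle and 0.142 in corticosterone, and their part in the result was not tested.

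Macrophage-like and microglia-like cells also moved in opposite directions for Fcgrt and for the balance, while the other members were higher in both classes. The log2 ratio of Fcgrt was -0.20 in microglia-like cells and 0.37 in macrophage-like cells, and the log2 difference of activating over inhibitory UMIs was 0.31 and -0.068. In vehicle, 991 of 1060 macrophage-like cells were in cluster 4, and in corticosterone 756 of 805 were in cluster 6. Microglia markers stood there at 0.821 and 0.645 of their level in microglia-like cells. The part of these in the result was not tested. With 1 library per group, none of these differences between classes was tested.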

How the results depend on the processing

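The 6 genes, the balance and the count past 2-fold in microglia-like cells were recomputed under 17 other settings, 4 of which were added after the data had been seen (genes centred within each library before clustering, without the 6% of barcodes with the highest doublet score, with unnamed cluster 3, without microglia subcluster 3). Every gene kept its direction in all 17, and Fcgr4 was the 1 gene past 2-fold in each, between 2.186 and 2.67. With edgeR TMM factors the log2 ratios were 0.45 (Fcgr1), 0.54 (Fcgr3), 0.25 (Fcgr2b), 0.23 (Fcer1g) and -0.11 (Fcgrt), and with DESeq2 size factors 0.47, 0.55, 0.27, 0.24 and -0.092; these scalings moved the median of all genes by 0.09 and 0.11. Over all kept cells they were 0.41 (Fcgr3), 2.38 (Fcgr4), 0.071 (Fcgr2b), 0.11 (Fcer1g) and -0.37 (Fcgrt). With a rule per cell (at least 3 microglia markers and no macrophage, monocyte or neutrophil marker with a UMI) they were 2.186 (Fcgr4), 0.30 (Fcgr2b) and 0.15 (Fcer1g). Fcgrt was at -0.14 without cells that held a macrophage marker UMI, and Fcgr1 at 0.26 without the interferon-high subcluster. With cells thinned to 1000 UMIs, Fcgr1 was at 0.41, Fcgr3 at 0.46 and Fcgrt at -0.10, and with each cell weighted equally Fcgr1 was at 0.39, Fcgr3 at 0.51, Fcgr2b at 0.19 and Fcer1g at 0.18.

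The log2 difference of the balance was 0.36 over all kept cells and 0.16 with the rule per cell. It was 0.38 with Fcgr1 and Fcgr4 as the numerator and reversed to -0.023 with Fcer1g as the numerator. For these changes the cause was not tested. Thinned to 2000 in place of 1000 UMIs, the share of microglia-like cells with a UMI of Fcgr4 was 3.45% and 17.6%. Without a minimum level, 13.5% of all genes were higher by 2-fold or more. At a mean of at least 5 CPM the list medians were 0.03 for signalling, -0.03 for brakes and 0.01 for ITIM receptors. They were -0.55 for other Fc-binding, Fc receptor-like or partner genes and -0.42 for immunoglobulin genes. No paired analysis was possible because each group has 1 library, and no replicate could be left out for the same reason. Depth limits Fcgr4 most, with 590 vehicle UMIs in microglia-like cells.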

Other observations

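Among the members themselves, over the 14 sums of class and library, the Pearson correlation of log2(CPM + 1) was 0.95 between Fcgr2b and Fcgrt, 0.91 between Fcgr1 and Fcgr3, and 0.88 between Fcgr3 and Fcgr2b. That of Fcgr4 was -0.16 with Fcgr1, 0.19 with Fcgr3 and 0.02 with Fcgr2b. These sums share 2 libraries and carry microglia transcripts, so the values are given as descriptions.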
